A study of Mus musculus with 16 samples.

Results

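RNase P and RNase MRP are the RNA-based nucleases that trim transfer RNA precursors and cut the ribosomal RNA precursor, and 10 of their genes were followed here through 16 RNA-seq libraries of mouse pre-B cells. The genes are Rpph1 and Rmrp, which encode the RNA cores of RNase P and RNase MRP, and the protein subunit genes Pop1, Pop4, Pop5, Pop7, Rpp21, Rpp30, Rpp38 and Rpp40. They are 10 of 23279 symbols in the expression table, and 10 of 10 passed the filter on low values used for testing. They were selected on FPKM values of these same libraries, Rpph1 and Rmrp because they varied between libraries and Pop5 because it was lower after loss of SHP2 with BCR-ABL1 and lies near Ptpn11. The 4 groups of 4 libraries were SHP2-null cells with BCR-ABL1, BCR-ABL1 cells with wild-type SHP2, SHP2-null cells without BCR-ABL1 and SHP2 wild-type cells without BCR-ABL1. The labels write these genotypes as BCR-ABL WT (+/+) or NULL (-/-) and SHP2 WT (+/+) or NULL (-/-). BCR-ABL1 is the constitutively active fusion kinase of Philadelphia chromosome leukaemias, and SHP2, encoded by Ptpn11, is a phosphatase that passes receptor signals on to RAS and ERK. How SHP2 was deleted, how BCR-ABL1 was introduced, the age of the animals and whether replicates are separate animals or cultures are not stated in the labels, so the p-values cover the spread among these 16 samples, which could be technical in origin. Libraries were made from polyA RNA with a stranded mRNA kit, and expression is given as FPKM (fragments per kilobase of transcript, scaled to library size).

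RNase P removes the 5′ leader of precursor tRNAs, and RNase MRP cuts the first internal spacer of the ribosomal RNA precursor. Each consists of 1 catalytic RNA and a set of proteins most of which serve both enzymes. In human cells RPP21 is found in RNase P and not in RNase MRP. Both RNAs are made by RNA polymerase III from promoters that lie upstream of the gene, and neither receives a poly(A) tail. Mutations of human RMRP cause cartilage-hair hypoplasia, a skeletal disorder with immune deficiency.

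The 2 RNA cores are shown because the values below turn on them, bases 1 to 300 of Rpph1 and the whole of Rmrp, in the orientation of the transcript, with their longest shared run in capitals. Rpph1 has the identifier ENSMUSG00000092837.1 and lies at chr14:50807449-50807767 on the minus strand (GRCm38, GENCODE M21), where 233 of its 319 bases also fall in an exon of Ccnb1ip1 on the same strand. Rmrp has the identifier ENSMUSG00000088088.1 and lies at chr4:43492788-43493058 on the minus strand, and 124 of the 281 bases of its annotated exons lie opposite an exon of Ccdc107 on the plus strand.
Rpph1: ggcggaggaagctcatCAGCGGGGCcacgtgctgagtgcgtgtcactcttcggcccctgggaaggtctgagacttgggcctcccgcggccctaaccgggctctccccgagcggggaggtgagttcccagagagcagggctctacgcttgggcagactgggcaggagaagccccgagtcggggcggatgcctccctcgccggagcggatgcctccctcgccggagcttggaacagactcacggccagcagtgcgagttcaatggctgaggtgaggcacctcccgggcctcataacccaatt
Rmrp: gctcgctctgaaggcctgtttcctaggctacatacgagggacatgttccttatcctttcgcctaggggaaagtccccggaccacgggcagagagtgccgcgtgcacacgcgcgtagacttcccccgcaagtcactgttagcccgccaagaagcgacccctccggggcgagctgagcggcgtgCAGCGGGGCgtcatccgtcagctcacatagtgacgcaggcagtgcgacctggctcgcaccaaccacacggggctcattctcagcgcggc
The shared run CAGCGGGGC starts at base 17 of Rpph1 and at base 183 of Rmrp, counted from the 5′ end. In a global alignment the RNAs were identical at 176 of 339 columns (51.9%). The longest run of A was 2 bases in Rpph1 and 3 bases in Rmrp. The table also lists Rprl1 and Rprl2, copies whose sequences were 71.2% and 75.5% identical to Rpph1, which stayed below 1 FPKM in every library and were not tested.

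Both RNA genes start close to a protein-coding gene on the other strand, Parp2, a poly(ADP-ribose) polymerase gene, beside Rpph1 and Ccdc107 beside Rmrp. Their start regions are shown because they lie upstream of the RNAs. The Ccdc107 window does not reach the bases next to the Rmrp start. The sequences are RefSeq promoter windows (GRCm38.p6) of 250 bases before to 50 bases after the start of the coding neighbour, on the plus strand, with the octamer ATTTGCAT or its reverse complement in capitals. The octamer is a binding motif of POU transcription factors and occurs in upstream elements of many promoters of this type.
Parp2, chr14:50807666-50807965: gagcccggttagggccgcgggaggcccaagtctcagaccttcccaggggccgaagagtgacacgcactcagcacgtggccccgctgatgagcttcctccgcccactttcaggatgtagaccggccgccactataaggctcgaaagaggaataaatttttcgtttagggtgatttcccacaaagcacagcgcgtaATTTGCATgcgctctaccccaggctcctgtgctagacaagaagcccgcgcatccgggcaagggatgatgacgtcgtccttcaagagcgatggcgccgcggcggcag
Ccdc107, chr4:43493115-43493414: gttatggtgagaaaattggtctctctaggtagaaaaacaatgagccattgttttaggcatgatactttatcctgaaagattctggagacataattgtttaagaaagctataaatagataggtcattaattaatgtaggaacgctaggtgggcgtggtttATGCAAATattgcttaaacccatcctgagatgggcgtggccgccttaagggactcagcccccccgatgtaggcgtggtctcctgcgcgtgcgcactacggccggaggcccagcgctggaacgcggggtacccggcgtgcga
The first 102 bases of the Parp2 window lie inside Rpph1, with 149 bases between the 2 starts, and the octamer stands 93 bases upstream of the Rpph1 start. In the Ccdc107 window the octamer is on the opposite strand, 216 bases upstream of the Rmrp start. By the RefSeq start of Ccdc107 there are 307 bases between the starts. In GENCODE M21 the Ccdc107 gene begins at chr4:43492900, inside Rmrp, so this spacing holds for the RefSeq start only. The octamer, searched on both strands, occurs in 570 of 32851 such windows (1.74%), and in 0 of the 6 windows of subunit genes (Pop4, Pop5, Pop7, Rpp30, Rpp38 and Rpp40). A match describes the letters and is not a site in use. Parp2 averaged 34.4 ± 2.97 FPKM and Ccdc107 26.7 ± 2.80 FPKM over the 16 libraries (SD).

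As a check of the labels, Ptpn11 averaged 4.52 ± 1.21 FPKM in SHP2-null cells with BCR-ABL1, against 17.0 ± 0.957 FPKM in BCR-ABL1 cells with wild-type SHP2. Without BCR-ABL1 it averaged 5.79 ± 2.03 FPKM in SHP2-null cells and 16.7 ± 0.647 FPKM in SHP2 wild-type cells (SD, n = 4). The 13 pre-B cell markers all reached 1 FPKM in each group and summed to 2071 to 2779 FPKM per library. The 11 myeloid markers summed to 35.2 to 47.4 FPKM in SHP2-null cells with BCR-ABL1, 34.4 to 58.6 FPKM in wild-type cells with it, 40.0 to 494 FPKM in SHP2-null cells without it and 42.7 to 63.9 FPKM in wild-type cells without it. The highest of these sums belongs to SHP2-null replicate 2 without BCR-ABL1, where the macrophage gene Lyz2 read 403 FPKM. Markers of T and NK cells, of the erythroid and megakaryocyte lines and of stroma summed to at most 3.47, 10.8 and 0.116 FPKM. Summed FPKM over all genes ran from 348923 to 443702. The files hold no counts, so absolute depth is unknown, and relative depth was estimated to differ by up to 1.59 times between libraries. In bulk samples fewer cells of a type and less RNA per cell cannot be told apart.

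Rpph1, the RNase P RNA, spanned 13.7 times between its lowest and highest library. It read 1193, 6574, 3657 and 11904 FPKM in the 4 SHP2-null libraries with BCR-ABL1, in the order of replicates 0 to 3, against 3047, 5659, 16292 and 5223 FPKM in BCR-ABL1 cells with wild-type SHP2. Without BCR-ABL1 it read 4172, 7076, 8825 and 13463 FPKM in SHP2-null cells and 2028, 7123, 7253 and 10032 FPKM in SHP2 wild-type cells. The groups overlapped, and the spread lay within them. Replicate 0 was the lowest library in 4 of 4 groups, a position it held in all 4 groups for 300 of 10210 genes (2.94%), and replicate 3 was the highest in 3 of 4. Since Rpph1 was chosen for varying between libraries, this share is a description.

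Rmrp, the RNase MRP RNA, spanned 6.75 times and was ordered much as Rpph1 was. It read 1166, 4379, 3404 and 6189 FPKM in SHP2-null cells with BCR-ABL1, against 3897, 4002, 7869 and 4558 FPKM in BCR-ABL1 cells with wild-type SHP2. In cells without BCR-ABL1 it read 3281, 4396, 5851 and 6562 FPKM with SHP2 null and 1992, 5432, 5128 and 6542 FPKM with SHP2 wild type. The same library held the lowest value of both RNAs, SHP2-null replicate 0 with BCR-ABL1, and the same library the highest of both, SHP2 wild-type replicate 2 with BCR-ABL1. Together they made up 0.676% of summed FPKM in the first of these libraries and 5.45% in the second. The ratio of Rpph1 to Rmrp ran from 0.782 to 2.07, so the RNAs moved together without a fixed ratio. The standard deviation of log2(FPKM + 1) within groups was 1.07 for Rpph1 and 0.72 for Rmrp, larger than for 99.6% and 98.8% of the 10210 genes tested, whose median was 0.14. Both RNAs were selected for varying between libraries, so these ranks describe that choice.

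**Figure D1:**
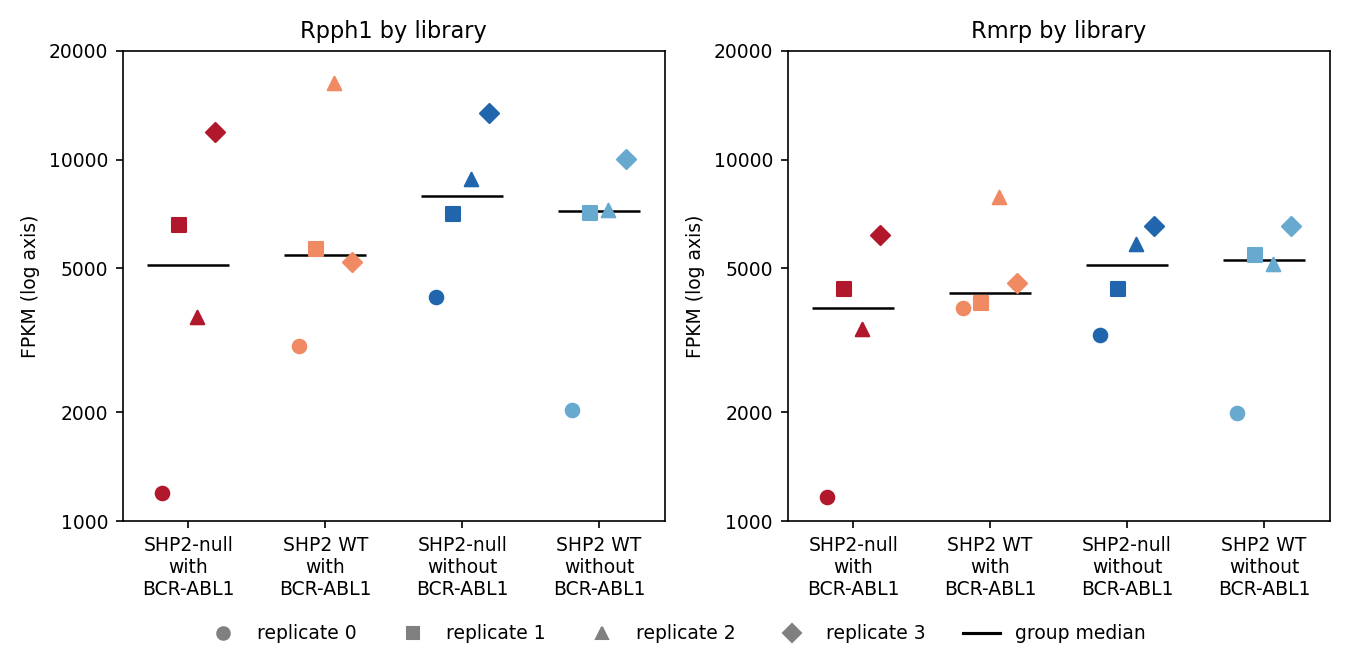
FPKM of Rpph1 and Rmrp (log axis) in each of the 16 libraries by group, where the marker shape gives the replicate number and the bar the group median. Replicate 0 is the lowest point of every group for both RNAs, and values run from 1193 to 16292 FPKM for Rpph1 and from 1166 to 7869 FPKM for Rmrp.

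Across the 16 libraries the levels of the RNAs ran with the summed level of the replication histone genes and with Terc, and not with the sum of other noncoding RNAs. On the log2(FPKM + 1) scale Rpph1 and Rmrp had a Pearson correlation of 0.96 and a Spearman correlation of 0.96 (permutation p = 1e-05 for each, the smallest that 100000 resamples can give, adjusted p = 2e-05 and 3e-05 over 17 relations). Both RNAs were chosen for varying between these same libraries, so the p-values of their correlations are read as a description. The permutations shuffled the 16 libraries freely, although libraries of the same replicate number ran together, so all permutation p-values given here may be too small. Without the 2 libraries farthest from the median of Rpph1 the Pearson correlation was 0.93, and it was 0.89 for deviations from group and replicate-number means. No p-value was computed for such deviations. Rpph1 and the sum of the replication-dependent histone genes, whose mRNAs end in a stem-loop, had correlations of 0.97 (Pearson) and 0.99 (Spearman, permutation p = 1e-05 each), with 0.96 without the 2 farthest libraries and 0.95 for group and number deviations. The histone sum was 7340 FPKM in the library with the lowest Rpph1 and 27576 FPKM in the library with the highest. Rmrp and the histone sum had correlations of 0.91 and 0.96 (permutation p = 1e-05 each), with 0.79 for group and number deviations.

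Terc, the RNA of telomerase, which in its mature form also lacks a long tail, followed the same order, a relation looked at after the values had been seen. It read 3.05, 16.8, 8.73 and 31.2 FPKM in SHP2-null cells with BCR-ABL1, against 11.5, 11.8, 28.8 and 16.3 FPKM in BCR-ABL1 cells with wild-type SHP2. Without BCR-ABL1 it read 12.2, 18.4, 24.4 and 38.7 FPKM in SHP2-null cells and 6.69, 19.2, 30.1 and 38.3 FPKM in SHP2 wild-type cells. Its Pearson correlation was 0.95 with Rpph1 and 0.95 with Rmrp, and its Spearman correlation 0.95 and 0.93 (permutation p = 1e-05 in each case), with 0.89 and 0.90 without the 2 farthest libraries. The sum of 75 other noncoding RNAs, a list of snRNAs, snoRNAs, scaRNAs and others that also holds Terc, had Pearson correlations of -0.26 with Rpph1 and -0.22 with Rmrp (permutation p = 0.333 and 0.410, Spearman -0.14 and -0.03 with permutation p = 0.597 and 0.908). As a description, 53 of 65 tested replication histone genes (81.5%) had a correlation of at least 0.8 with Rpph1, against 2 of 32 other noncoding RNAs (6.25%, Terc and Snora78) and 412 of all 10209 other genes (4.04%). What sets these levels was not tested.

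**Figure D2:**
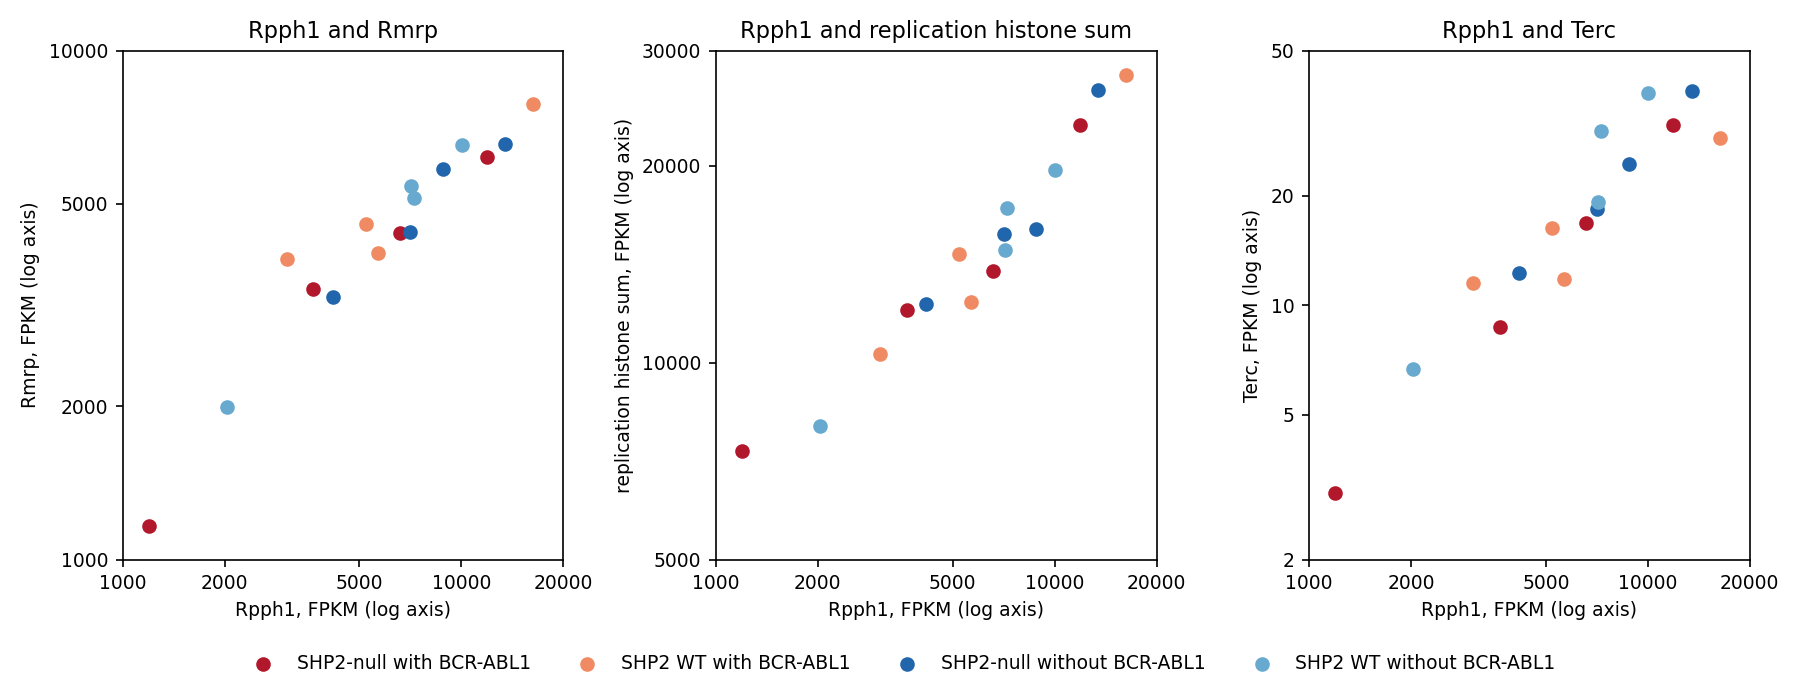
Rpph1 FPKM on the horizontal axes against Rmrp, the summed replication histone genes and Terc on the vertical axes (FPKM, log axes), 1 point per library, coloured by group. The points of the 4 groups intermingle along 1 band in each panel, with Pearson correlations of log2(FPKM + 1) of 0.96, 0.97 and 0.95.

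The genes most like Rpph1 by Pearson correlation over the 16 libraries were the histone genes Hist2h2aa1 (0.996), Hist1h4h (0.992), Hist1h4f (0.992), Hist2h2ac (0.991) and Hist2h3b (0.990). Those most like Rmrp were Hist1h4h (0.964), Rpph1 (0.960), the ribosomal protein gene Rpl36 (0.960), Snora78, a small nucleolar RNA (0.959), and Hist1h3f (0.956). The divergent neighbours did not rank near them, with correlations of -0.14 between Parp2 and Rpph1 and 0.09 between Ccdc107 and Rmrp. GC content is a further feature of both RNAs, at 67.1% for Rpph1 and 64.0% for Rmrp, higher than in 99.9% and 99.6% of tested genes with a value, whose median was 50.3%. The rank correlation of each library's deviations with GC content correlated with Rpph1 at 0.56 (Pearson, permutation p = 0.0242, adjusted 0.0457) and 0.37 (Spearman, permutation p = 0.163, adjusted 0.252), and at 0.32 without the 2 libraries farthest in Rpph1. For deviations from group means it was 0.52, and for deviations from group and replicate-number means 0.80, so the relation changed with the way it was computed. The part of GC content in the levels was not tested.

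No difference between groups in either RNA passed in limma over the spread between replicates. With BCR-ABL1, Rpph1 averaged 5832 ± 4607 FPKM in SHP2-null cells and 7555 ± 5935 FPKM in SHP2 wild-type cells (SD, n = 4), a log2 change of -0.53 with a 95% interval of -1.96 to 0.91. Without BCR-ABL1 it averaged 8384 ± 3892 FPKM in SHP2-null cells and 6609 ± 3336 FPKM in SHP2 wild-type cells, a log2 change of 0.43 with an interval of -0.999 to 1.87. Rmrp had log2 changes of -0.59 (interval -1.57 to 0.39) with BCR-ABL1 and 0.15 (interval -0.83 to 1.13) without it. Each interval holds changes in both directions, and a change of any size within it is compatible with these values.

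The protein subunit genes averaged 3.34 to 30.8 FPKM, a scale that corrects for transcript length. Pop4, whose product contacts the RNA core, was the highest at 30.8 ± 2.85 FPKM over the 16 libraries (SD). Then followed Rpp30 at 21.0 ± 2.89, Rpp21 at 19.8 ± 3.56, Pop5 at 18.1 ± 3.67, Pop7 at 15.9 ± 2.65 and Pop1 at 12.4 ± 2.35 FPKM. From Rpp30 to Pop1 the ranges of 1 SD around the means overlapped between neighbours in this order, while those of Pop4 and Rpp30 did not. Rpp38 at 8.65 ± 1.08 FPKM and Rpp40 at 3.34 ± 0.458 FPKM stood below Pop1 and apart from each other. Of the remaining subunit genes of the table, Rpp25l averaged 15.0 ± 2.30 FPKM and Rpp14 13.3 ± 1.11 FPKM, and Rpp25 ran from 0.402 to 1.24 FPKM and was not tested.

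Pop5 encodes a small subunit that pairs with RPP14 in the human enzymes, and it was lower in SHP2-null cells in both backgrounds. With BCR-ABL1 it read 16.2, 13.0, 13.7 and 14.2 FPKM in SHP2-null cells, against 20.6, 20.9, 21.5 and 21.1 FPKM in SHP2 wild-type cells. The groups did not overlap, and the 67.9% remaining in null cells (log2 change -0.53) is a description, since this comparison chose the gene. Without BCR-ABL1 it read 16.3, 14.6, 13.4 and 16.7 FPKM in SHP2-null cells, against 20.7, 22.8, 19.9 and 23.7 FPKM in SHP2 wild-type cells. These groups also did not overlap, with the null libraries below as for 3.07% of all genes, and Pop5 fell by 0.49 on the log2 scale (SE 0.08, limma adjusted p = 0.00435), with 15.2 ± 1.54 FPKM in SHP2-null cells and 21.8 ± 1.80 FPKM in SHP2 wild-type cells (SD), so that 69.9% remained. The limma adjusted p of 0.00435 uses a spread shared by all 16 libraries, among them those with BCR-ABL1 on which Pop5 was chosen. Fitted on the 8 libraries without BCR-ABL1 alone, the SE was 0.09 and the limma adjusted p was 0.0711, which does not pass. The fall without BCR-ABL1 was -0.43 (adjusted p = 0.0164) when SHP2-null replicate 2, the library with high Lyz2, was left out.

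The effects of SHP2 loss on Pop5 with and without BCR-ABL1 differed by -0.04, with a 95% interval of -0.28 to 0.20. BCR-ABL1 itself went with log2 changes of Pop5 of -0.09 (interval -0.26 to 0.09) in SHP2-null cells and -0.05 (interval -0.22 to 0.13) in SHP2 wild-type cells. Its standard deviation within groups, 0.11 on the log2 scale, was lower than for most genes (percentile 26.7), and its correlation with Rpph1 was 0.02. Among the genes most like Pop5 were Ptpn11 (Pearson 0.926 over the 16 libraries), Pxmp2 (0.907), Zfp213 (0.903) and Bri3bp (0.895). Group means were not removed, so these correlations include the SHP2 difference on which Pop5 was chosen and are a description. Pxmp2 and Bri3bp also lie on chromosome 5, at -10.9 and 4.31 Mb from Ptpn11.

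Pop1, which encodes the largest protein subunit, read 9.09, 10.3, 8.70 and 12.5 FPKM in SHP2-null cells with BCR-ABL1, against 13.0, 12.6, 13.8 and 14.5 FPKM in BCR-ABL1 cells with wild-type SHP2. These groups did not overlap, but the log2 change of -0.39 ± 0.14 (SE) did not pass (limma adjusted p = 1.00). Without BCR-ABL1 Pop1 read 10.5, 11.8, 8.80 and 16.3 FPKM in SHP2-null cells, against 14.1, 14.3, 13.6 and 15.0 FPKM in SHP2 wild-type cells, and the groups overlapped through SHP2-null replicate 3. That log2 change was -0.28, with a 95% interval of -0.57 to 0.01.

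Pop7 and Rpp21 were the protein genes whose levels ran with Rpph1. Pop7, which encodes the Alba-type subunit RPP20, read 11.0, 15.0, 13.1 and 18.2 FPKM in SHP2-null cells with BCR-ABL1, against 13.3, 15.3, 20.1 and 16.6 FPKM in BCR-ABL1 cells with wild-type SHP2. Without BCR-ABL1 it read 15.8, 16.2, 14.5 and 19.1 FPKM in SHP2-null cells and 12.3, 17.2, 18.1 and 19.1 FPKM in SHP2 wild-type cells. Its highest and lowest libraries with BCR-ABL1 were those of Rpph1, and its groups overlapped. Its Pearson correlation with Rpph1 was 0.91 and its Spearman correlation 0.87 (permutation p = 1e-05 and 4e-05), with 0.83 without the 2 farthest libraries, and its Pearson value exceeded that of 98.8% of genes.

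Rpp21 read 11.9, 18.4, 17.6 and 22.7 FPKM in SHP2-null cells with BCR-ABL1, against 20.9, 17.7, 22.5 and 22.9 FPKM in BCR-ABL1 cells with wild-type SHP2. Without BCR-ABL1 it read 18.0, 18.2, 18.9 and 27.9 FPKM in SHP2-null cells and 16.1, 21.0, 20.5 and 21.9 FPKM in SHP2 wild-type cells. Its correlations with Rpph1 were 0.81 and 0.73 (Pearson and Spearman, permutation p = 0.00015 and 0.00173), with 0.59 without the 2 farthest libraries. Rpp25l, whose product is a relative of the POP7 partner RPP25, had correlations of 0.90 and 0.85 (permutation p = 1e-05 and 8e-05). The other 6 protein genes had Pearson correlations with Rpph1 of 0.02 to 0.41, and none of these passed after adjustment. The relations with protein genes were chosen after the values had been seen.

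Pop7, Rpp21 and Rpp25l share short transcripts, with longest annotated forms of 988, 729 and 856 bases, and a GC content of 56.8%, 56.7% and 59.2%. The other 6 protein genes have longest transcripts of 1042 bases (Rpp38) to 4380 bases (Rpp40). Their GC content runs from 42.8% (Rpp30) to 55.95% (Pop5). Pop5 is thus close to Pop7 and Rpp21 in GC content, while its correlation with Rpph1 was 0.02. Leaving out the histones and other noncoding RNAs, 55 of 420 genes with a longest transcript under 1000 bases (13.1%) had a correlation of at least 0.8 with Rpph1, against 274 of 9076 longer genes (3.02%). Both limits were set after the values had been seen, and the part of transcript length and GC content in these correlations was not tested.

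Rpp30, Pop4, Rpp38 and Rpp40 varied less between replicates than these. Rpp30 had its lowest library at 15.4 FPKM and its highest at 25.1 FPKM, Pop4 at 24.9 and 35.2 FPKM, and Rpp38 at 6.89 and 10.3 FPKM. Rpp40 read 2.75, 2.45, 3.11 and 3.11 FPKM in SHP2-null cells with BCR-ABL1, against 3.50, 2.97, 3.65 and 3.70 FPKM in BCR-ABL1 cells with wild-type SHP2. Without BCR-ABL1 it read 2.96, 3.31, 2.97 and 3.78 FPKM in SHP2-null cells, against 3.59, 3.91, 3.69 and 4.06 FPKM in SHP2 wild-type cells. The groups overlapped in both comparisons, with log2 changes of -0.21 ± 0.08 and -0.18 ± 0.08 (SE). Between libraries of the same replicate number Rpp40 was lower in SHP2-null cells in 4 of 4 pairs with BCR-ABL1 and in 4 of 4 without it, but it did not pass with the replicate block either. With BCR-ABL1 Pop1, Pop4, Pop5, Rpp30 and Rpp38 were also lower in 4 of 4 pairs, as were 12.8% of all genes, and without BCR-ABL1 Pop5 and Rpp40 were, against 12.3% of all genes. Replicate 3 was the highest library in 4 of 4 groups for Pop1, Rpp21, Rpp30 and Rpp38, as it was for 158 of 10210 genes (1.55%).

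**Figure D3:**
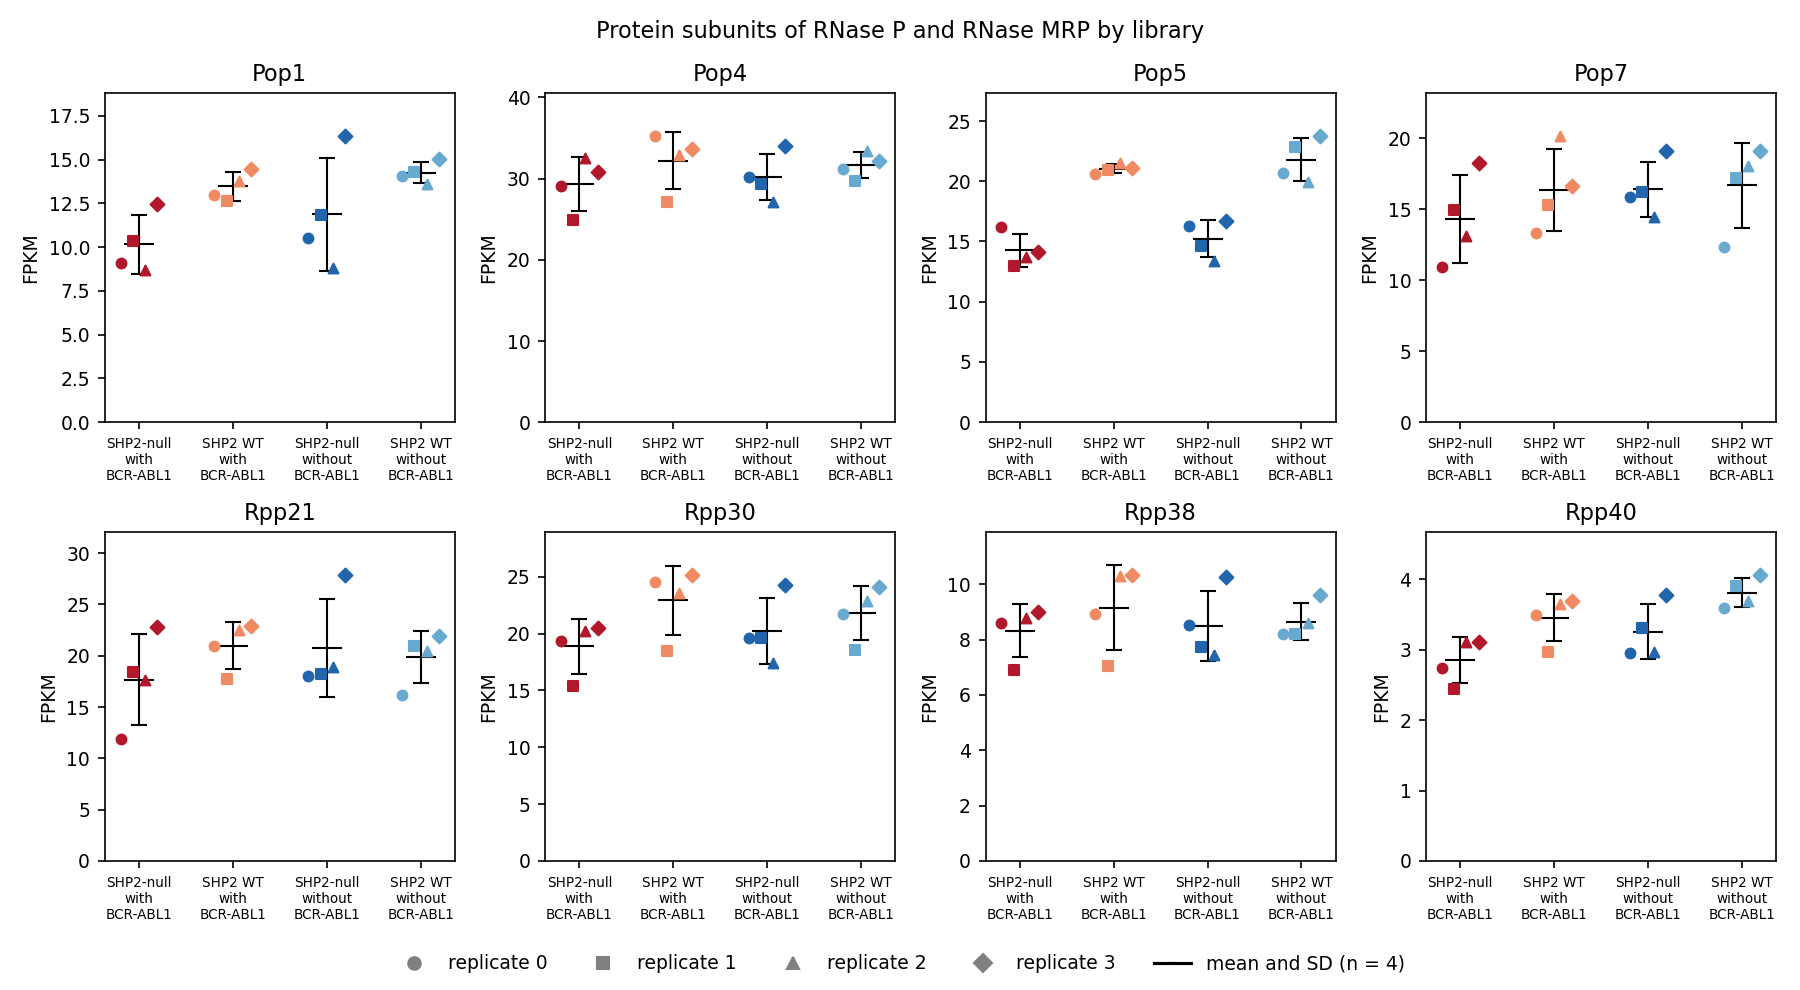
FPKM of the 8 protein subunit genes in each library, 1 panel per gene, by group, with the mean and standard deviation (n = 4). Pop5 lies at 13.0 to 16.7 FPKM in the SHP2-null libraries and at 19.9 to 23.7 FPKM in the SHP2 wild-type libraries, while the groups of the other genes overlap in at least 1 background.

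Counted together, 1 of the 10 genes was lower upon SHP2 loss when BCR-ABL1 was present (Pop5, which was selected on this comparison), where 0.313% of all genes were called and 0.137% were called lower. Before adjustment, limma gave p below 0.05 for 4 of 10 (Pop1, Pop5, Rpp30 and Rpp40), against 3.65% of all genes. The null libraries lay wholly below the wild-type libraries for Pop1 and Pop5, as they did for 1.67% of genes. The log2 change was negative for 10 of 10, with a median of -0.26, against 5851 of 10210 genes and a median of -0.02. Since the comparison was used to choose the genes, nothing is read from these counts.

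Without BCR-ABL1, 1 of the 10 was lower (Pop5), where in limma 1.54% of all genes were called and 0.519% were called lower (157 genes called, or 587 with the replicate number as a block). At an unadjusted p below 0.05 there were 2 of 10 (Pop5 and Rpp40), against 16.1% of all genes, so that the share of the 10 genes lay near that of the rest. The change was negative for 7 of 10 (median -0.05), against 4505 of 10210 genes (median 0.02). In the test of the difference between the SHP2 effects 0 of the 10 genes passed in limma and 0 at an unadjusted p below 0.05, where 0% of all genes were called and 5.79% had an unadjusted p below 0.05. The widest of these differences were those of Rpph1, at -0.96 with an interval of -2.99 to 1.07, and Rmrp, at -0.75 with an interval of -2.13 to 0.64.

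In the comparisons of cells with against cells without BCR-ABL1, 0 of the 10 genes passed in limma. In SHP2 wild-type cells 4.67% of genes were called with BCR-ABL1 in limma, or 1231 genes with the block against 477 without it, and 0 of the 10 had an unadjusted p below 0.05, against 19.1% of all genes. In SHP2-null cells 1.26% of genes were called (129 genes, or 538 with the block), and again 0 of the 10 had an unadjusted p below 0.05, against 13.5% of all genes. All 10 changes in SHP2-null cells were negative (median -0.16, against -0.01 over all genes), and 6 of the 10 in SHP2 wild-type cells were positive. The comparisons share libraries, so their signs are not separate pieces of evidence.

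**Figure D4:**
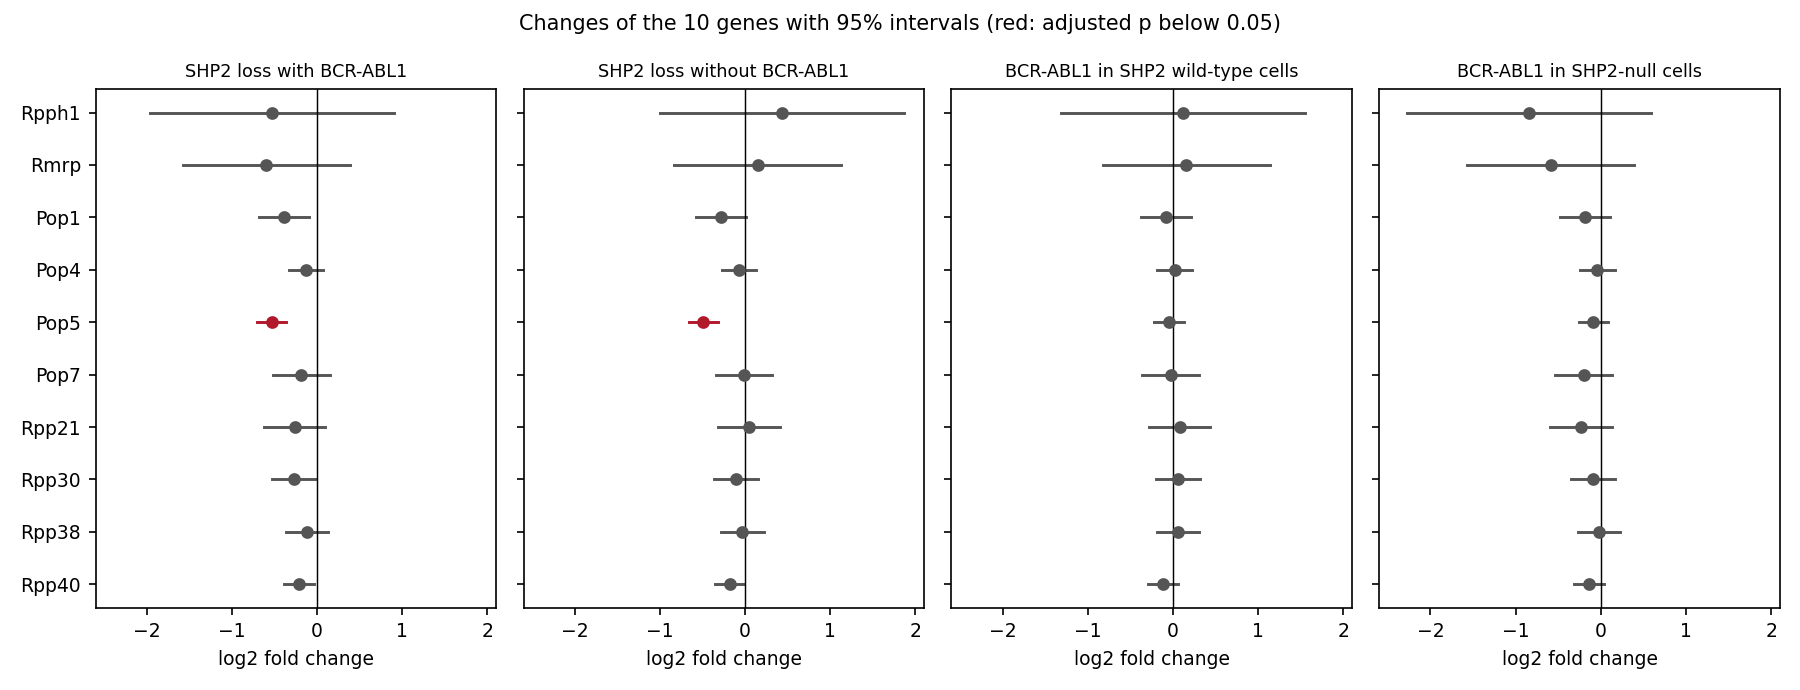
Log2 change of log2(FPKM + 1) with its 95% interval for the 10 genes in SHP2 loss and BCR-ABL1 comparisons, each of 4 against 4 libraries. The intervals come from 1 fit with a spread shared by all 16 libraries. The intervals of Rpph1 and Rmrp are the widest and hold 0 throughout, and Pop5 lies at -0.53 and -0.49 with loss of SHP2 with and without BCR-ABL1.

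Pop5 lies at chr5:115235836-115245351 on the plus strand (GRCm38), 5.885 Mb from Ptpn11 (chr5:121130533-121191397), the targeted gene. Its gene overlaps that of Rnf10 on the opposite strand with 0 shared exon bases. Rnf10 had log2 changes of 0.40 (limma adjusted p = 0.185) with BCR-ABL1 and 0.11 (adjusted p = 0.606) without it upon loss of SHP2. Of the 29 other tested genes within 1 Mb of Pop5, 2 were called with loss of SHP2 with BCR-ABL1 (1500011B03Rik and Gltp), with 15 negative changes and a median of -0.01. Without BCR-ABL1 3 of the 29 were called (1500011B03Rik, Pxn and Sirt4), with 9 negative changes and a median of 0.11. Of the 33 tested genes between Pop5 and Ptpn11, 1 was called with BCR-ABL1 (Hspb8) and 3 without it (Hspb8, Pxn and Sirt4). These counts stand beside 0.313% of all genes called with BCR-ABL1 and 1.54% without it. Called genes were thus more frequent around Pop5 than over all genes, but they were few, and Pxn and Sirt4 count in both windows. Most neighbours of Pop5 were not called, and the called ones did not all share its direction. 1500011B03Rik (0.50 with and 0.41 without BCR-ABL1), Pxn (0.72 without) and Sirt4 (0.40 without) rose. Gltp (-0.38 with) and Hspb8 (-2.80 with and -2.16 without) fell. Pop7 lies on the same chromosome, 16.31 Mb from Ptpn11, and had log2 changes of -0.19 and -0.01 with loss of SHP2 with and without BCR-ABL1. Of the 35 other tested genes within 1 Mb of Pop7, 2 were called with BCR-ABL1 (4933404O12Rik and Plod3). Without BCR-ABL1 4 of the 35 were called (4933404O12Rik, Plod3, Sap25 and Trim56). Called genes were thus also more frequent around Pop7 than over all genes, and this was not particular to the surroundings of Pop5. The windows were set after the values had been seen. Effects of SHP2 loss and of the chromosome segment that carries the null allele cannot be told apart for a gene in this position.

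**Figure D5:**
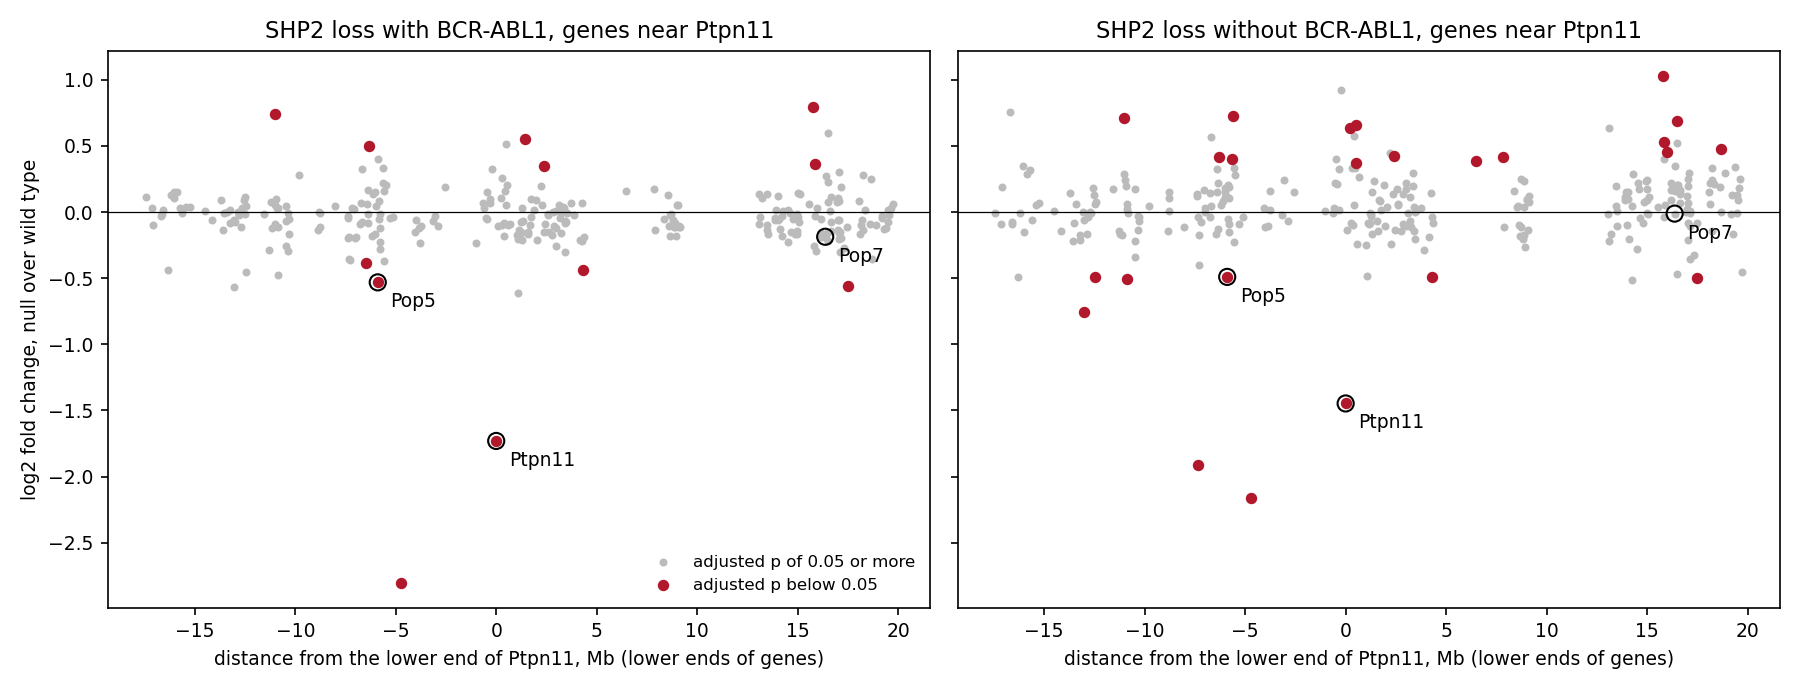
Log2 change with loss of SHP2 for tested genes of chromosome 5 around Ptpn11, with and without BCR-ABL1, by distance from the lower end of Ptpn11 in Mb. Pop5, 5.885 Mb away, lies at -0.53 and -0.49 among neighbours whose median changes within 1 Mb of it are -0.01 and 0.11.

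The pathways around the enzymes were read from lists of genes, to be set beside all 10210 genes, of which 5851 had negative changes with loss of SHP2 with BCR-ABL1 (median -0.02) and 4505 without it (median 0.02). The remaining subunit genes that were tested, Rpp14 and Rpp25l, and the promoter neighbours Parp2 and Ccdc107 gave 0 calls in limma in any of the 5 comparisons and 0 genes at an unadjusted p below 0.05, although the Ccdc107 libraries with BCR-ABL1 lay lower in SHP2-null than in SHP2 wild-type cells without overlap. Of 14 tRNA processing genes, which cut, splice and finish tRNAs, 0 were called in any comparison, and with BCR-ABL1 and loss of SHP2 12 had negative changes (median -0.09). The RNA polymerase III machinery, which transcribes Rpph1, Rmrp and the tRNAs, gave 0 calls among 27 genes, with 21 negative changes with BCR-ABL1 (median -0.06) and 9 without it (median 0.05). The 19 genes of pre-rRNA spacer processing, the pathway of RNase MRP, also gave 0 calls, with 19 negative changes with BCR-ABL1 (median -0.13) and 13 without it (median -0.06). At an unadjusted p below 0.05 with loss of SHP2 these lists held 1, 2 and 2 genes with BCR-ABL1 and 0, 2 and 1 without it, in the order given, and the difference between these effects held 0, 2 and 1. Over all genes the shares were 3.65% with BCR-ABL1, 16.1% without it and 5.79% for the difference. For BCR-ABL1 the lists held 2, 4 and 1 in SHP2-null cells and 2, 2 and 0 in SHP2 wild-type cells, where the shares over all genes were 13.5% and 19.1%.

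Of 32 tested other noncoding RNAs, 1 was called with loss of SHP2 without BCR-ABL1, where 1.54% of all genes were called in either direction. It was the small Cajal body RNA Scarna3a, at 82.4 ± 20.5 FPKM in SHP2-null cells and 19.2 ± 7.58 FPKM in SHP2 wild-type cells (SD, n = 4). This is a log2 rise of 2.09 ± 0.42 (SE) with limma adjusted p = 0.0194. Of the 65 tested replication histone genes 53 had a correlation of at least 0.8 with Rpph1, and the lowest was -0.36. The changes of the 65 were negative for 59 with loss of SHP2 with BCR-ABL1 (median -0.29) and positive for 62 without it (median 0.35). In limma 0 were called in either, and 0 and 1 had an unadjusted p below 0.05, against 3.65% and 16.1% of all genes. With BCR-ABL1 in SHP2-null cells 62 were negative (median -0.59), 0 were called and 1 had an unadjusted p below 0.05, against 13.5% of all genes. With BCR-ABL1 in SHP2 wild-type cells 1 of the 65 was called, where 4.67% of all genes were. It was Hist2h2be, higher at 3.67 ± 0.681 FPKM with and 2.41 ± 0.396 FPKM without BCR-ABL1 (limma adjusted p = 0.0201). In each of the first 3 of these comparisons the median of the histone genes had the sign of the Rpph1 change, -0.53, 0.43 and -0.84. Most of these genes ran with Rpph1 over the same libraries, so the shared signs restate that correlation and are not separate evidence.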

How the data were processed

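RNA-seq libraries of polyA RNA were made from 16 pre-B cell samples in 4 groups of 4, from 150 ng of RNA and 100 cycles of paired-end sequencing per the labels' protocols. The authors deposited FPKM values by gene symbol, and the submitters' processing notes name Bowtie, Cufflinks and the build mm10 (GRCm38), with no role given. Versions, annotation, strand settings and the treatment of multi-mapping fragments are not stated there, so reads of Rpph1 and Ccnb1ip1, and of Rmrp and Ccdc107, cannot be told apart where their exons overlap. For 254 repeated symbols values were summed, 0 of the 10 genes being among them. Depth is unknown. The commonest ratio of values below 0.05 FPKM held within 1% for 6.78% to 18.3% of genes per pair of libraries, so whole reads could not be recovered.

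Genes reaching 1 FPKM in 4 or more of the 16 libraries (10210) were fitted as log2(FPKM + 1), a scale that understates the change of low genes, with limma 3.58.1 in R 4.3.3 (4 group means, trended prior, two-sided, Benjamini-Hochberg over all genes, threshold 0.05). This single fit gave the 5 comparisons, and its calculation was tested on simulated data. Correlations over libraries, a family of 17, used 100000 permutations, made without regard to group or replicate number. Sequences came from GENCODE M21 and from RefSeq promoter windows, which matched 6 of the 10 genes (not Rpph1, Rmrp, Pop1 and Rpp21). The RNAs were aligned globally with Biopython 1.88 (match 1, mismatch -1, gap opening -2, gap extension -0.5). Tables and figures used Python 3.11.15 with matplotlib 3.10.9, scipy 1.17.1, pandas 2.3.3 and numpy 2.4.6.

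The 10 genes, the gene lists and the markers were chosen with earlier results of these data known. Named were the 10 genes, Ptpn11, the other subunits, the RNase P RNA copies, the promoter neighbours, up to 4 called genes with the smallest p of each other list (of the cell type markers sums are given), and the 5 genes most correlated with Rpph1, Rmrp and Pop5, of which 1 is not reported here. Terc, Rnf10, Lyz2 and the called neighbours of Pop5 were named after their values were seen. Ccnb1ip1 was named for its exon overlap with Rpph1 and has no value under that symbol in the expression table. Replicate numbers 0 to 3 were checked for pairing. Deviations from group means correlated between same-number libraries at 0.218 to 0.783 for SHP2 loss with BCR-ABL1, 0.189 to 0.510 for SHP2 loss without it, 0.242 to 0.680 for BCR-ABL1 in SHP2-null cells and 0.0549 to 0.643 for BCR-ABL1 in SHP2 wild-type cells, so the numbers were taken to pair libraries in the first 3. Alternatives covered the pseudocount, the filter, scaling, the groups fitted, array weights, the replicate block and each library left out.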

Additional observations from a re-analysis of the deposited data

Results flagged for a closer look

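A library far from the other 3 of its group was looked for in the 10 genes in 4 groups by Dixon's ratio of the gap to the range at its 95% critical value. It was found in 2 of 40 groups, where chance gives about 1 in 20 for separate tests. Rmrp was chosen for varying between libraries, and several of the genes ran together over libraries, so this count is a description. Rmrp read 7869 FPKM in SHP2 wild-type replicate 2 with BCR-ABL1 (ratio 0.834), against 3897 to 4558 FPKM in the other 3 libraries of that group. Rpp21 read 27.9 FPKM in SHP2-null replicate 3 without BCR-ABL1 (ratio 0.907), against 18.0 to 18.9 FPKM in the others. Rpph1 was also the highest of its group in both of these libraries.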

How the results depend on the processing

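With 1 choice changed at a time, 50 pairs of gene and comparison gave 1295 values, of which 50 in 18 pairs had the other sign (35 of these with 1 library left out), 0 of them calls, and 0 uncalled values passed. The call of Pop5 with loss of SHP2 without BCR-ABL1 was lost when the groups compared were fitted alone (adjusted p = 0.0711, 0 of the 10 genes called). That fit uses fewer samples and leaves out the libraries on which Pop5 was chosen. Over all alternatives its log2 change ran from -0.53 to -0.43 (adjusted p 0.000614 to 0.0711), and with BCR-ABL1, where it was selected, from -0.59 to -0.48. With the replicate block Pop5 had adjusted p = 0.00240 without BCR-ABL1, the block changed 0 calls of the 10 genes, and the correlation of Rpph1 with Rmrp was 0.894.

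Log2 changes that took the other sign follow, and the cause was not tested. For BCR-ABL1 in SHP2 wild-type cells Pop4 was at -0.0149 with median-ratio scaling, -0.0244 with quantile normalization and -0.00862 when rescaled to one sum without Rpph1 and Rmrp, and Rpph1 at -0.0919 with quantile normalization. The difference between SHP2 effects was 0.00900 for Pop4, 0.00208 for Pop5 and 0.00417 for Rpp40 with quantile normalization, and 0.000365 rescaled and 0.0194 with array weights for Rpp40. For SHP2 loss without BCR-ABL1 Pop7 was at 0.000894 when rescaled, and with array weights Rpph1 at -0.0735, Rmrp at -0.217 and Rpp21 at -0.101. With array weights Pop4 was at 0.0318 and Rpp38 at 0.0611 for BCR-ABL1 in SHP2-null cells.

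Leaving out 1 library gave the following ranges where the sign changed. For SHP2 loss with BCR-ABL1 Rpph1 ran from -1.02 to 0.0906. Without BCR-ABL1 it ran from -0.0619 to 0.729, Rmrp from -0.225 to 0.347, Pop7 from -0.142 to 0.0558, Rpp21 from -0.0972 to 0.103 and Rpp38 from -0.116 to 0.0237. The difference ran from -0.229 to 0.0452 for Pop1, -0.139 to 0.0129 for Pop4, -0.100 to 0.00197 for Pop5 and -0.0831 to 0.0291 for Rpp40. For BCR-ABL1 in SHP2 wild-type cells the ranges were -0.376 to 0.461 for Rpph1, -0.221 to 0.350 for Rmrp, -0.0229 to 0.0979 for Pop4, -0.154 to 0.0629 for Pop7, -0.0145 to 0.153 for Rpp21 and -0.00722 to 0.160 for Rpp30. In SHP2-null cells they were -0.0914 to 0.0334 for Pop4 and -0.0775 to 0.0621 for Rpp38.

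Counts over all genes moved with the replicate block (587, 1231 and 538 for SHP2 loss without BCR-ABL1 and BCR-ABL1 in SHP2 wild-type and SHP2-null cells), with array weights (644, 837 and 1861 for SHP2 loss without BCR-ABL1 and BCR-ABL1 in SHP2 wild-type and SHP2-null cells, and 2 for the difference) and with a mean of at least 5 FPKM, which tests fewer genes (11, 70, 186 and 33 for SHP2 loss with and without BCR-ABL1 and BCR-ABL1 in SHP2 wild-type and SHP2-null cells). They were 34 and 30 for SHP2 loss without BCR-ABL1 and BCR-ABL1 in SHP2-null cells when those groups were fitted alone, and 264 for BCR-ABL1 in SHP2 wild-type cells when rescaled. Leaving out 1 library gave 20 to 35 genes for SHP2 loss with BCR-ABL1 (20 on omitting replicate 3 and 21 on omitting replicate 2 of the wild-type group, against 32), 80 to 164 for SHP2 loss without it (80 and 102 without wild-type replicates 2 and 3 and 103 without null replicate 2, against 157), 235 to 636 for BCR-ABL1 with wild-type SHP2 (250, 305 and 306 without replicates 0, 2 and 3 with BCR-ABL1 and 235 and 296 without replicates 2 and 3 lacking it, against 477), and 49 to 176 for BCR-ABL1 in SHP2-null cells (55 and 49 without replicates 0 and 2 with BCR-ABL1 and 70 and 61 without replicates 0 and 3 lacking it, against 129).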
